A study of Mus musculus with 8 samples.

Results

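The genes described here are 49 subunits of chromatin remodelling complexes, measured with 81 probes in isolated mouse hepatocytes that kept or lacked the cannabinoid receptor gene *Cnr1*. They were taken from 21368 genes that the array named, and 38 of the 49 were among the 11072 genes tested. The list was chosen by complex membership, but it was selected on the same contrast that is shown here, because *Smarca5* was already known to be among the largest rises. All differences between the genotypes of these 49 genes are therefore a description, and no test of the list as a whole was made.

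The control mice were male hCNR1+/+ littermates of strain CNRO, and the knockout mice were male hCNR1-/- animals of strain CNRO Alb-Cre. In the knockout, Cre driven by the albumin promoter removes the floxed *Cnr1* alleles in hepatocytes, so that other liver cells keep the gene. Mice of both genotypes were 12 to 14 weeks old and ate the Standard diet, and no treatment is named in the labels. RNA of 4 mice per genotype was hybridised to 1-colour Agilent arrays, 1 mouse per array. All values are log2 signals relative to the 75th percentile of the same array, so that a level of 0 is the signal of that percentile, and a difference is hCNR1-/- minus hCNR1+/+. A difference is given with its standard error from limma, with n = 4 per genotype.

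Chromatin remodelling complexes use the energy of ATP to slide, evict or exchange nucleosomes. Each is built around a motor ATPase of the SNF2 family, and the other subunits dock the motor on modified histones, methylated DNA or transcription factors. SWI/SNF complexes open chromatin at enhancers and promoters, ISWI complexes space nucleosomes, NuRD joins a CHD motor with histone deacetylases, and the INO80 family exchanges histone variants. In liver, SWI/SNF and NuRD are known for roles in hepatocyte differentiation and regeneration.

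The single probe of *Cnr1* was at background on all 8 arrays (0 of 4 above it in each genotype). The arrays thus do not show the deletion, and the genotypes are taken from the labels. The paper reports *Cnr1* mRNA in hepatocytes of both genotypes, and its methods describe a PCR assay for it. The slide held hCNR1+/+ samples in row 1 and hCNR1-/- samples in row 2, and an effect of the row cannot be told apart from one of the genotype. The 75th percentile of intensity ran from 62.0 to 139 over hCNR1+/+ arrays and from 79.4 to 124 over hCNR1-/- replicates 1 to 3, and it was 29.3 for hCNR1-/- replicate 4. That array stood apart from its group, with a mean correlation of 0.942 with the other hCNR1-/- arrays against 0.972 to 0.975 for each of those. Signal above background was found on all 8 arrays for 15 of 15 hepatocyte markers, with a mean level from 7.99 to 8.62 in hCNR1+/+ and from 8.01 to 8.35 in hCNR1-/- hepatocytes. Markers of Kupffer cells, the resident macrophages of liver, were lower in hCNR1-/- hepatocytes for 10 of the 10 tested (12 were listed), 2 of them at an adjusted p below 0.05 in limma, with a mean level from 1.39 to 2.59 against 0.23 to 1.12. *Timd4* was the Kupffer cell marker above background on 0 arrays. Fewer Kupffer cells and less RNA per Kupffer cell cannot be told apart, and their part in the results below was not tested.

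The motors *Smarca5* and *Chd4* were the members that passed an adjusted p below 0.05, and the 250 bases before their annotated starts are shown because they are the DNA in front of these genes. The sequences are from RefSeq, build GRCm38.p6, written 5′ to 3′ along the gene's strand. Capitals mark the short core of the cAMP response element (TGACG, or CGTCA on the other strand) and the NRF1 core (GCGCATGC, or GCATGCGC on the other strand). The *Smarca5* window is chr8:80739460-80739709 on the minus strand, with 69.2% G and C, and the *Chd4* window is chr6:125095731-125095980 on the plus strand, in front of the most upstream of its annotated starts, with 54.0% G and C.
Smarca5: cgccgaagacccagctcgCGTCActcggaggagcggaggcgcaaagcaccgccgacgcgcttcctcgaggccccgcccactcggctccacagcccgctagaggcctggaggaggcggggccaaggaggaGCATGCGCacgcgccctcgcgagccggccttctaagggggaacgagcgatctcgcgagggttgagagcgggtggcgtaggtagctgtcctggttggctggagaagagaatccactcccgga
Chd4: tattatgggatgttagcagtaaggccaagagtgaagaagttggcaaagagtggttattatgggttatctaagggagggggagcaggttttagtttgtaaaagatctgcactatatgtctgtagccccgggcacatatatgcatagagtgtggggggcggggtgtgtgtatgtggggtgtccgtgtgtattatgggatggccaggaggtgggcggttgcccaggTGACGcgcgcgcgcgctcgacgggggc
The cAMP response core begins 232 bases before the start of *Smarca5* and 27 bases before that of *Chd4*, and the NRF1 core begins 121 bases before the start of *Smarca5*. Windows of 250 bases before and 50 after a start were found for 37 of the 49 members, 42 windows in all. The cAMP response core was in 13 of these 42 windows (31.0%) and in 20.8% of all 32817 windows of the same length. The full element, TGACGTCA, which contains this core, was in 1 member window, that of *Baz2b*, and in 1.79% of all windows. The NRF1 core was in 4 member windows, those of *Smarca4*, *Smarca5*, *Smarcb1* and *Smarcc1*, and in 2.71% of all. An ETS motif, CCGGAAG, was in 6 member windows and in 8.86% of all, and a CCAAT box was in 14 and in 37.4%. TATAAA was in 3 member windows and in 13.6% of all. Both strands were searched, and a match is a run of letters, not a bound site.

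Among the 38 tested members, 2 were higher and 0 were lower in hCNR1-/- hepatocytes at an adjusted p below 0.05 in limma, where 2.94% of all tested genes were called higher and 1.30% lower. At an unadjusted p below 0.05, 9 members were higher and 0 lower, against 14.7% and 6.92% of all tested genes. With the percentile taken over probes above background on all arrays these counts were 8 and 3 (*Baz2b*, *Chd2* and *Smarcal1*), against 8.47% and 13.2%. All 4 hCNR1-/- arrays lay above all 4 hCNR1+/+ arrays for 10 members (*Smarca5*, *Chd4*, *Bptf*, *Baz1b*, *Baz2a*, *Arid2*, *Arid1b*, *Pbrm1*, *Chd8* and *Chd9*) and below them for 0, against 12.7% and 5.04% of all tested genes. These shares are set beside the counts as the background only, since the contrast took part in the choice of the list. The difference was above 0 for 24 members and below 0 for 14, or 63.2% above 0 against 56.6% of all tested genes. The median difference over the members was 0.15 and that over all tested genes was 0.08, but with the other percentile the medians were -0.005 and -0.08, and without scaling they were -0.40 and -0.47. These scalings shift all genes of an array by the same amount, so the gap of 0.07 between the medians is the same by construction. The 12 tested motors had a median difference of 0.35 and the 26 tested other subunits 0.09, and the difference between these medians was not tested.

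**Figure D1:**
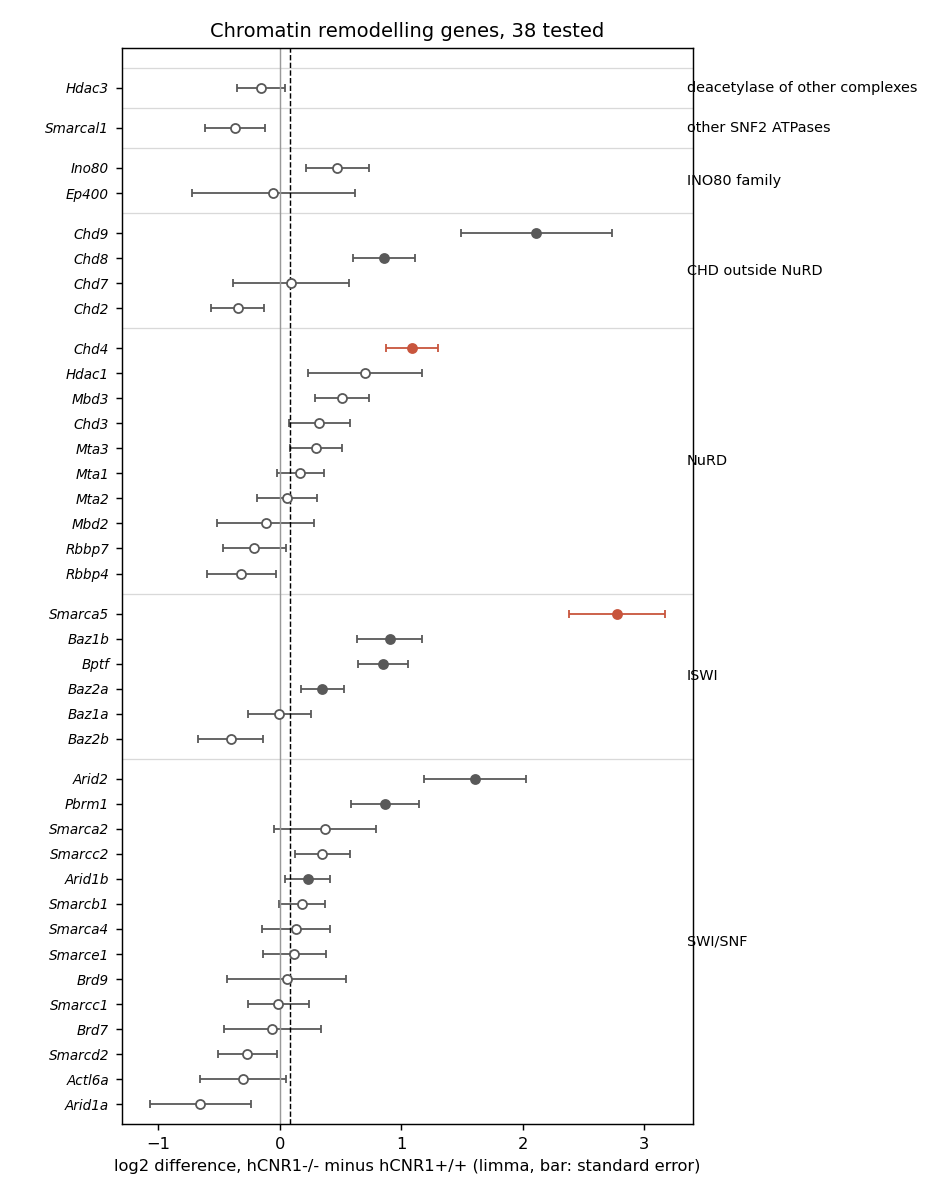
Log2 difference between hCNR1-/- and hCNR1+/+ hepatocytes for the 38 tested members, by complex, with bars of 1 standard error from limma. Red marks the 2 members at an adjusted p below 0.05, filled points mark the 10 members whose groups did not overlap, and the dashed line is the median of all tested genes, 0.08 with this scaling and -0.47 without scaling.

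The ISWI group held the member with the largest difference. *Smarca5* encodes SNF2H, the motor of most ISWI complexes, and it has 1 probe (A_55_P2059134). Its level was -0.24, -0.17, -1.28 and -1.86 on the hCNR1+/+ arrays and 1.57, 1.54, 2.25 and 2.19 on the hCNR1-/- arrays. The groups were separated by more than the range within either, and hCNR1-/- replicate 4 was in the upper part of its group. The means were -0.89 ± 0.82 (SD, n = 4) and 1.89 ± 0.38 (SD, n = 4), a difference of 2.78 (standard error 0.40, 95% interval 1.88 to 3.67), or 6.85-fold. This was the 18th largest rise among the 11072 tested genes. Over 20 alternative settings the difference of *Smarca5* ran from 1.64 to 3.02, and it passed an adjusted p below 0.05 in limma under 15 of them. *Smarca1*, which encodes the related motor SNF2L, has 1 probe that was above background on 0 arrays, so the 2 ISWI motors cannot be set side by side.

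The partner subunits of ISWI did not all differ alike. *Bptf*, the large subunit of the NURF complex that reads methylated histones, had levels of 2.94, 3.27, 3.05 and 3.30 in hCNR1+/+ and 3.77, 3.92, 4.36 and 3.92 in hCNR1-/- hepatocytes. These groups did not overlap, and the difference was 0.85 (standard error 0.21). *Baz1b*, a kinase and bromodomain subunit of the WICH complex, gave -1.78, -1.33, -1.07 and -0.55 against -0.16, -0.40, -0.22 and -0.31. The *Baz1b* groups were separate, with a wider spread in hCNR1+/+ hepatocytes and a difference of 0.91 (standard error 0.27). *Baz2a*, the TIP5 subunit of the nucleolar NoRC complex, had levels of 1.35, 1.08, 1.26 and 1.22 against 1.64, 1.40, 1.61 and 1.67. Its difference was small, 0.35 (standard error 0.18), but no array of one genotype reached the other. The brightest probe of *Baz1a*, the ACF1 subunit, had levels of 0.35, 0.30, -0.12 and 0.30 against 0.29, 0.28, 0.67 and -0.39. Its groups overlapped, with a difference of 0.00 (standard error 0.26). *Baz2b*, a related bromodomain gene, had a difference of -0.40 (standard error 0.27). *Baz2b* was not well above background on hCNR1-/- replicate 4, and without that array its difference was -0.17. The remaining probes of *Baz1a* gave 0.66 and -0.99, and they were above background on 2 arrays and 1 array, so the opposite signs rest on dim signal. All 3 probes of *Rsf1*, the partner of SNF2H in the RSF complex, were above background on 0 arrays.

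In NuRD the motor *Chd4* stood above the other subunits of its complex in the size of the difference, by the brightest probe of each gene. *Chd4* has 1 probe (A_55_P2020373), with levels of 5.14, 4.54, 4.93 and 4.95 in hCNR1+/+ and 6.12, 6.09, 6.04 and 5.66 in hCNR1-/- hepatocytes. The lowest hCNR1-/- array, replicate 4, was still above the highest hCNR1+/+ array. The difference was 1.09 (standard error 0.21, 95% interval 0.61 to 1.57), or 2.12-fold, and without replicate 4 it was 1.19. *Chd4* passed the adjusted threshold in limma under 7 of 20 alternative settings, among them the removal of hCNR1-/- replicate 4, while it did not pass with any other single array removed. *Chd3*, the alternative motor of NuRD, had levels of 3.91, 3.68, 3.88 and 3.67 against 4.60, 4.16, 4.19 and 3.50. Replicate 4 was the lowest of all 8 arrays for *Chd3* while the other hCNR1-/- arrays lay above the hCNR1+/+ arrays, and the difference was 0.33 (standard error 0.25).

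The other NuRD subunits had differences on both sides of 0. *Hdac1*, one of the deacetylases, gave 3.19, 2.90, 2.74 and 1.90 in hCNR1+/+ and 3.99, 3.80, 3.79 and 1.95 in hCNR1-/- hepatocytes. Replicate 4 was the lowest array of both genotypes, and the difference was 0.70 (standard error 0.47). The methyl-DNA binding subunits *Mbd3* and *Mbd2* had differences of 0.51 (standard error 0.22) and -0.11 (standard error 0.40). The MTA scaffold subunits *Mta1*, *Mta2* and *Mta3* had differences of 0.17, 0.06 and 0.30, and the histone chaperones *Rbbp4* and *Rbbp7* of -0.32 and -0.21. None of these NuRD subunits passed the adjusted threshold in limma. *Hdac2* was not tested, because its probe, printed in 10 spots, was above background on 0 arrays. *Hdac3*, the deacetylase of the NCoR complexes, was measured on all 8 arrays, with a difference of -0.15 (standard error 0.20) and overlapping groups.

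**Figure D2:**
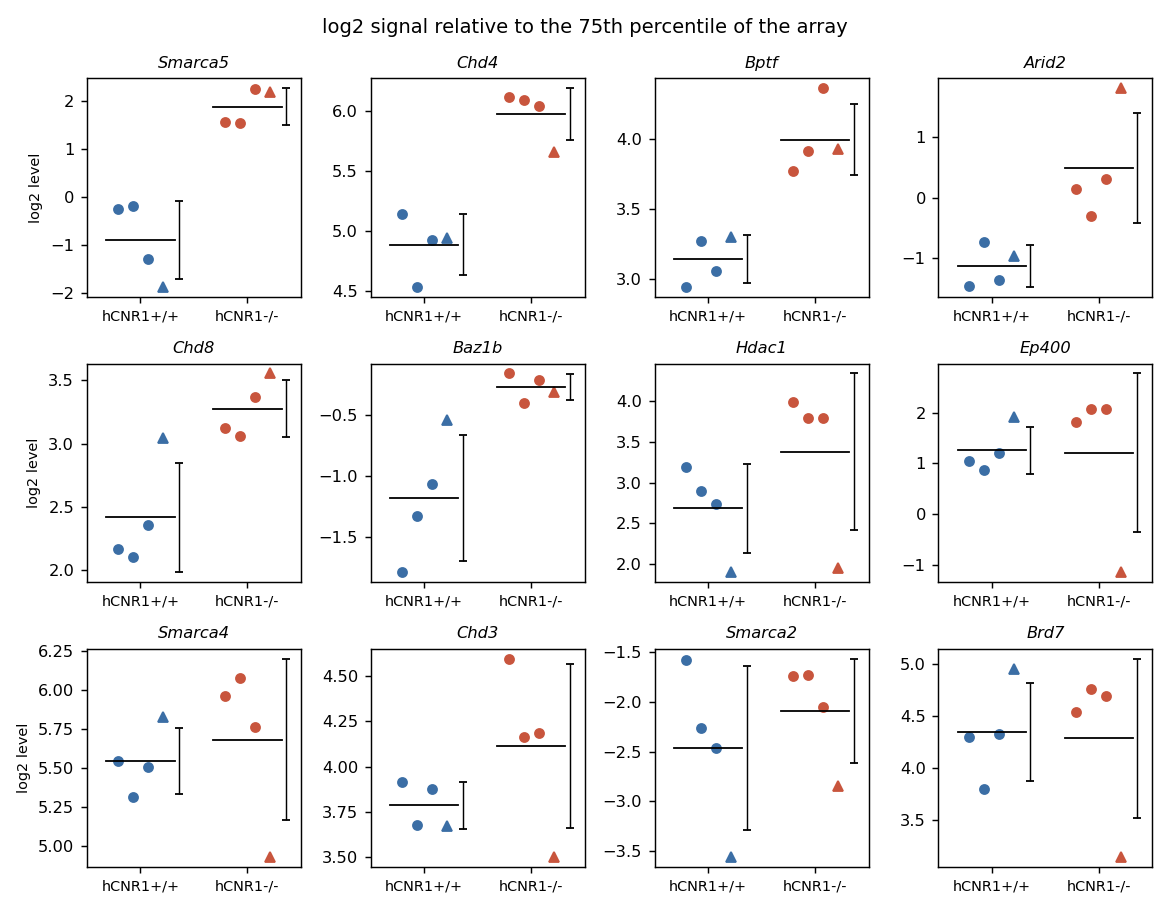
Levels of 12 members on each array as log2 signal relative to the 75th percentile of the array, with circles for replicates 1 to 3, triangles for replicate 4, lines for means and bars for SD (n = 4). The genotypes are separate for *Smarca5*, *Chd4*, *Bptf*, *Arid2*, *Chd8* and *Baz1b*, while hCNR1-/- replicate 4 is the lowest of its group for *Hdac1*, *Ep400*, *Smarca4*, *Chd3*, *Smarca2* and *Brd7*.

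The motors of SWI/SNF overlapped between the genotypes. *Smarca4*, which encodes BRG1, had levels of 5.54, 5.32, 5.51 and 5.83 in hCNR1+/+ and 5.96, 6.08, 5.76 and 4.93 in hCNR1-/- hepatocytes. The lowest and the highest of the 8 arrays were both hCNR1-/- arrays, and the difference was 0.14 (standard error 0.28, 95% interval -0.49 to 0.76). *Smarca2*, which encodes BRM, was above background on 1 hCNR1+/+ array and 3 hCNR1-/- arrays, with levels of -1.57, -2.26, -2.46 and -3.56 against -1.74, -1.73, -2.05 and -2.85. The groups overlapped, and the difference was 0.37 (standard error 0.42, 95% interval -0.57 to 1.32).

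The larger SWI/SNF differences lay in *Arid2* and *Pbrm1*, subunits of PBAF, the form of SWI/SNF that also carries *Brd7*. The DNA-binding subunit *Arid2* had levels of -1.45, -0.73, -1.35 and -0.96 in hCNR1+/+ and 0.14, -0.30, 0.30 and 1.80 in hCNR1-/- hepatocytes. The groups did not overlap, and replicate 4 was the highest hCNR1-/- array. The difference was 1.61 (standard error 0.42) with all arrays and 1.17 without hCNR1-/- replicate 4. *Pbrm1*, the polybromo subunit, gave -2.37, -1.83, -2.11 and -1.79 against -1.45, -1.62, -1.05 and -0.52. Its groups were separate with a difference of 0.87 (standard error 0.28), and it was above background on 3 hCNR1+/+ and 4 hCNR1-/- arrays. The bromodomain subunit *Brd7* gave 4.30, 3.80, 4.33 and 4.95 against 4.54, 4.76, 4.70 and 3.14. *Brd7* thus had a difference of -0.06 (standard error 0.40), with its lowest array in hCNR1-/- replicate 4.

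For the ARID subunits of canonical BAF, *Arid1b* had levels of 3.37, 3.09, 3.21 and 3.45 against 3.47, 3.61, 3.46 and 3.51. The groups were apart by less than the spread within hCNR1+/+ hepatocytes, and the difference was 0.23 (standard error 0.18). By its brightest probe *Arid1a* had the largest fall of all tested members, -0.65 (standard error 0.42), with overlapping groups and -0.21 without hCNR1-/- replicate 4. A dimmer probe of *Arid1a*, also above background on all 8 arrays, had a difference of -0.02. The core subunits *Smarcb1*, *Smarcc1*, *Smarcc2* and *Smarce1* had differences of 0.19, -0.01, 0.35 and 0.12. The actin-related subunit *Actl6a* and the accessory subunit *Smarcd2* had differences of -0.30 and -0.27, and the bromodomain subunit *Brd9* of the non-canonical form had 0.06. *Brd9* was not well above background on hCNR1-/- replicate 4, and without that array its difference was 0.61. None of these passed the adjusted threshold in limma. *Smarcd1* was above background on 3 arrays and *Smarcd3* on 1, so neither was tested.

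Of the CHD motors outside NuRD, *Chd8* and *Chd9* had separate groups. *Chd8*, known as a regulator of beta-catenin targets, had levels of 2.16, 2.11, 2.36 and 3.04 in hCNR1+/+ and 3.12, 3.06, 3.37 and 3.55 in hCNR1-/- hepatocytes. The gap between the groups was narrow, because hCNR1+/+ replicate 4 was close to the hCNR1-/- arrays, and the difference was 0.86 (standard error 0.26). *Chd9*, a coactivator partner of nuclear receptors, gave -1.02, -1.27, -3.07 and -4.12 against -0.01, -0.29, -0.13 and -0.59. It was above background on 2 hCNR1+/+ and 4 hCNR1-/- arrays, and its difference of 2.11 (standard error 0.62) rests in part on hCNR1+/+ arrays at background. *Chd7*, the motor mutated in CHARGE syndrome, had a difference of 0.09 (standard error 0.48), and *Chd2*, a motor found at transcribed genes, of -0.35 (standard error 0.22). *Chd1*, which also travels with RNA polymerase, was above background on 0 hCNR1+/+ and 2 hCNR1-/- arrays and *Chd6* on 0 arrays, so neither was tested.

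In the INO80 family, *Ep400*, the motor of the TIP60 complex, gave 1.04, 0.87, 1.20 and 1.92 in hCNR1+/+ and 1.82, 2.07, 2.07 and -1.14 in hCNR1-/- hepatocytes. On replicate 4 the probe was not well above background, so that its value there is not a measured level. The other hCNR1-/- arrays were near or above the highest hCNR1+/+ array. With replicate 4 the difference was -0.05 (standard error 0.67) and without it 0.73. *Ino80*, the motor of the complex of that name, had levels of -0.35, -0.04, -0.01 and -0.31 against 0.52, 0.28, 0.72 and -0.34. Here too the lowest hCNR1-/- array was replicate 4, and the difference of 0.48 (standard error 0.26) became 0.69 without it. *Srcap*, which deposits the variant H2A.Z, has 2 probes that were above background on 1 and on 2 arrays. *Smarcal1*, a helicase-like motor that anneals DNA at stalled forks, had a difference of -0.37 (standard error 0.25). *Smarcad1* was above background on 2 arrays, and *Hells* and *Atrx*, a motor for DNA methylation and a motor at heterochromatin, were above background on 0 arrays with 1 and 3 probes.

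Not all of these 49 genes could be checked with more than 1 probe. A single probe stood for 27 genes, 2 probes for 13, 3 for 8 and 4 for 1 gene. Of the 81 probes, 38 were above background on all 8 arrays, 52 on at least 4 and 17 on 0. For 12 genes 2 or more probes were above background on at least 4 arrays, and the probes of 8 of these had differences of 1 sign. The probes of *Hdac1* had differences of 0.70, 1.16 and 1.65, the last from a probe above background on 1 hCNR1+/+ and 3 hCNR1-/- arrays, so that its size rests on arrays at background. *Arid2* had 1.61 and 0.36, the latter with a probe above background on 1 hCNR1+/+ and 3 hCNR1-/- arrays. The brightest probe of *Arid1b* had a difference of 0.23. A dimmer probe of *Arid1b* was above background on 0 hCNR1+/+ and 4 hCNR1-/- arrays. Its hCNR1+/+ side was set to the lowest signal above background on each array, or to the probe's own signal where higher. The signal in hCNR1-/- hepatocytes was then 2.35-fold higher. That floor is the lowest over all probes of an array, so this fold is an estimate and not a lower limit. *Smarca4* had 0.14 and 0.44, and *Mbd3* 0.51 and 0.32. *Arid1a* had -0.65 and -0.02, *Rbbp7* -0.21 and -0.62, and *Smarce1* 0.12 and 0.10. Signs were mixed for *Chd2* (-0.35, 0.31 and 0.20), *Mbd2* (-0.11 and 0.15), *Mta3* (0.30 and -0.12) and *Smarcc1* (-0.01 and 1.03). The *Smarcc1* probe at 1.03 was above background on 2 hCNR1+/+ and 3 hCNR1-/- arrays, so its size rests in part on arrays at background. *Smarca5*, *Chd4*, *Bptf*, *Baz2a*, *Chd8* and *Chd9*, 6 of the 10 members with separate groups, have 1 probe each, so no other probe could check them. The other probe of *Baz1b* and that of *Pbrm1* were above background on 0 arrays, so they could not check these genes either.

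**Figure D3:**
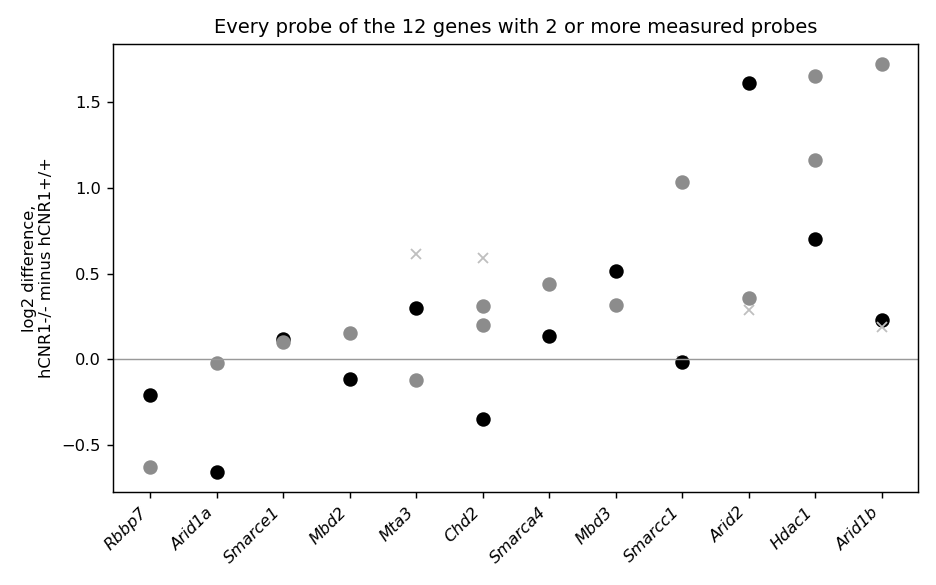
Log2 difference between hCNR1-/- and hCNR1+/+ hepatocytes for every probe of the 12 members with 2 or more probes above background on at least 4 arrays. Black points are the probes used in the gene test, grey points other probes above background on at least 4 arrays and crosses dimmer probes, and the probes of *Hdac1* lie at 0.70, 1.16 and 1.65, the last above background on 1 hCNR1+/+ array.

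Leaving out hCNR1-/- replicate 4, the dimmest array, moved the median of the members more than leaving out any other single array. It was the lowest hCNR1-/- array for 26 of 38 members (68.4%) and for 53.3% of all tested genes. The mean level over the members was 2.42 to 2.46 on hCNR1-/- replicates 1 to 3, 1.86 on replicate 4 and 1.89 to 2.05 on the hCNR1+/+ arrays. Over all tested genes the corresponding means were 2.36 to 2.42, 2.03 and 2.19 to 2.28. *Arid2*, *Pbrm1*, *Chd8*, *Smarcd2* and *Mbd3* were among the members for which replicate 4 was instead the highest array of its group. The lowest log2 signal well above background was -0.85 on replicate 4 and from -3.02 to -2.20 on the other hCNR1-/- arrays, so dim members such as *Pbrm1* were close to background there. Without replicate 4, the members at an adjusted p below 0.05 in limma were 6 higher (*Arid2*, *Bptf*, *Chd4*, *Hdac1*, *Ino80* and *Smarca5*) and 0 lower, where 10% of all genes were called higher and 2.89% lower. At an unadjusted p below 0.05 these counts were 13 and 0, against 23.9% and 7.71% of all genes. The groups were then separate for 17 members, all higher, against 24.3% of all genes higher and 6.93% lower, and the 7 members added were *Brd9*, *Chd3*, *Hdac1*, *Ino80*, *Mbd2*, *Mta2* and *Mta3*. The median difference over the members was 0.32 without this array and 0.15 with it, and that over all tested genes was 0.17 and 0.08. The part of the low signal of this array in these values was not tested.

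**Figure D4:**
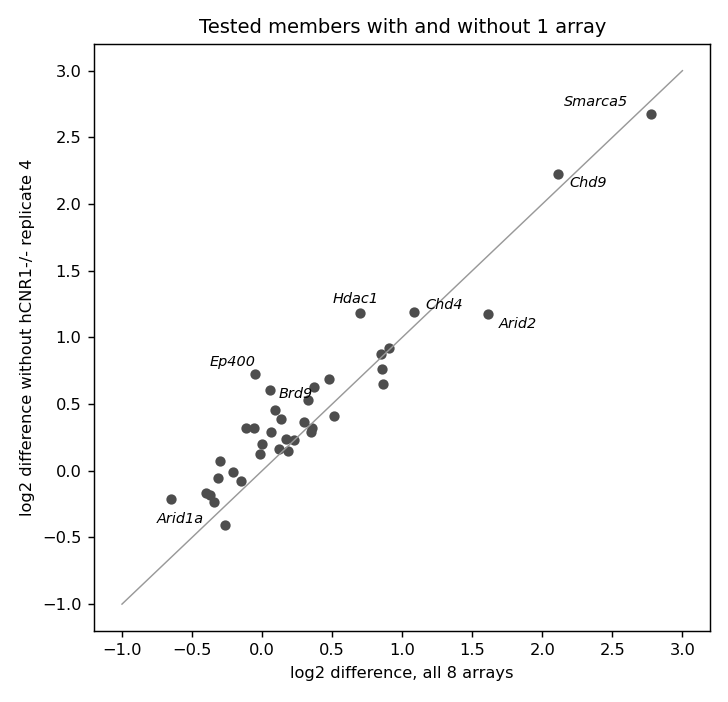
Log2 difference of the 38 tested members with all 8 arrays (x axis) and without hCNR1-/- replicate 4 (y axis), with the line of equal values. *Smarca5* moves from 2.78 to 2.68, *Hdac1* from 0.70 to 1.18, *Ep400* from -0.05 to 0.73 and *Arid2* from 1.61 to 1.17.

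A list of 59 other genes of the same complexes and of related SNF2 factors was looked at in the same fit. The array named 58 of them and 45 were tested. At an adjusted p below 0.05 in limma 3 were higher and 0 lower in hCNR1-/- hepatocytes, against 2.94% and 1.30% of all tested genes. At an unadjusted p below 0.05, 12 were higher and 0 lower, against 14.7% and 6.92%, and the groups were separate for 12, all higher, against 12.7% higher and 5.04% lower. *Bcl7b*, a small SWI/SNF subunit, had levels of 3.59, 3.81, 3.43 and 2.998 against 5.12, 4.74, 4.81 and 5.36. Its groups were well separated, with a difference of 1.55 (standard error 0.25, adjusted p = 0.0166 from limma). *Morf4l1*, a chromodomain subunit of the TIP60 complex, rose by 1.19 (standard error 0.20, adjusted p = 0.0196 from limma), and *Phf10*, a PHD finger subunit of PBAF, by 0.90 (standard error 0.21, adjusted p = 0.0481 from limma). All 3 were higher on 4 of 4 hCNR1-/- arrays than on any hCNR1+/+ array, but none passed under the replicate block or median scaling. Among the partner subunits of INO80, 10 of 11 were tested with 0 called and 4 separate groups, all higher (*Actr5*, *Ino80b*, *Ino80c* and *Uchl5*), where 12.7% of all tested genes were separate and higher. All 5 SRCAP subunits listed were tested with 0 called and 1 separate, *Znhit1*. At an unadjusted p below 0.05, 5 of these INO80 and SRCAP subunits were higher and 0 lower, beside the 14.7% and 6.92% of all tested genes. The median difference over the 45 genes was 0.25, against 0.08 over all tested genes.

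**Figure D5:**
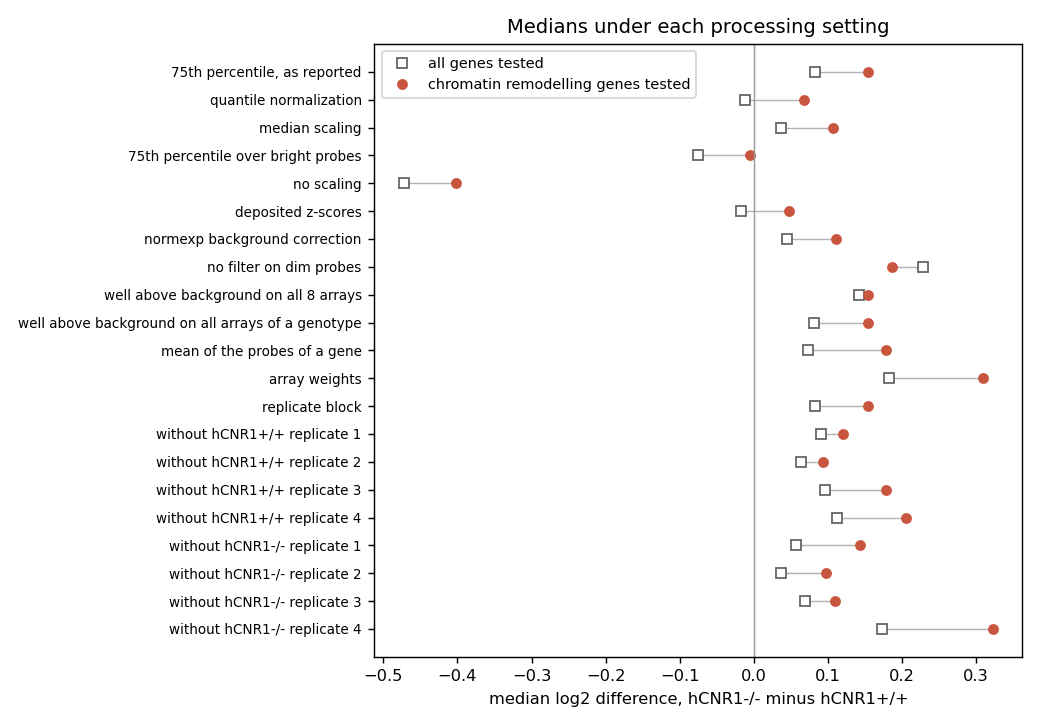
Median log2 difference between hCNR1-/- and hCNR1+/+ hepatocytes over the tested members (red points) and over all tested genes (open squares) under each processing setting. The members' median lies to the right of that of all genes except with no filter on dim probes, at 0.19 against 0.23. It is below 0 without scaling, at -0.40, and with the percentile over probes above background on all arrays, at -0.005. The gap of 0.07 as reported is the same by construction with median scaling, that percentile, no scaling or the replicate block.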

How the data were processed

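RNA from isolated hepatocytes of 4 hCNR1+/+ and 4 hCNR1-/- mice was measured on 1-colour Agilent arrays. A legend of the study gives n = 3 for these hepatocytes, and the labels give 4 samples per genotype, all used here. The authors deposited spot intensity from Feature Extraction 12.0.3.1, corrected for background within each array and not scaled between arrays. A second deposited column, a score, matched the z-score of log intensity within its array to 0.005. For array methods their text points to previous work, so scaling and test are not given in the sources used here.

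Each array was set to log2 relative to its own 75th percentile, computed over 59305 non-control spots. Outlier spots were left out and spots of a probe averaged, giving 55681 probes, of which 28331 were named through their accession by RefSeq (GRCm38.p6). A gene was tested with its brightest probe if at least 4 of 8 arrays had it well above background. Unfiltered signal near background can hide, shrink or enlarge a log2 difference, and the number of arrays limits the precision. The test was lmFit and eBayes of limma 3.58.1 in R 4.3.3, two-sided, with Benjamini-Hochberg adjustment over 11072 genes and a threshold of 0.05. Labels call each array a separate mouse's sample, and p-values measure the spread between these samples. On simulated data with the spread of the 11072 genes in this comparison, 29% of genes changed by 1 on the log2 scale and 72% of those changed by 2 were recovered, 0 with the wrong sign, and 10 unchanged genes were called. The simulated noise was independent, with the same spread in both genotypes and no array that stood apart. In the data the median SD over all tested genes was 0.29 in hCNR1+/+ and 0.45 in hCNR1-/- hepatocytes, so recovery here can differ.

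The members, the list of other subunits and the marker lists were chosen with earlier results of these data known. Values on every array were to be given for *Smarca5*, members at an adjusted p below 0.05, the motors of SWI/SNF, ISWI and NuRD, and members with probes of opposite sign past 0.5. Array values of other members, and the names of INO80 and SRCAP subunits, were added after their values were seen. Alternatives were other scalings, the deposited scores, normexp correction, other filters, the mean of the probes, array weights, a replicate block and each array left out. The constant added in the normexp correction narrows log2 differences of dim probes. Marker lists with few tested genes were stellate cell (1 of 8, with *Lrat*, *Des*, *Col3a1*, *Pdgfrb* and *Reln* above background on 0 arrays), cholangiocyte (2 of 6), lymphocyte (2 of 8) and neutrophil (0 of 6). None of the 7 tested endothelial and 12 tested immediate-early genes passed the adjusted threshold in limma, with medians of -0.35 and -0.37.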

Additional observations from a re-analysis of the deposited data

Results flagged for a closer look

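In groups of 4 arrays, the value farthest from the rest was set against the range of its group, and 11 of 82 groups examined held an array beyond the critical value of Dixon's ratio for a group of that size, where chance gives about 1 in 20. In 10 of the 11 that array was hCNR1-/- replicate 4. For 7 members it was low: *Brd7* at 3.14 against 4.54 to 4.76 on the other hCNR1-/- arrays, *Brd9* at -2.90 against -0.78 to -0.62, *Actl6a* at 0.20 against 1.58 to 1.86, *Chd4* at 5.66 against 6.04 to 6.12, *Hdac1* at 1.95 against 3.79 to 3.99, *Rbbp7* at 3.80 against 4.55 to 4.62, and *Ep400* at -1.14 against 1.82 to 2.07. For *Smarcd2* it was high, at 3.02 against 2.46 to 2.48. The mean level over the members was 1.86 on this array against 2.42 to 2.46 on the others, and its mean correlation with the group was 0.942 against 0.972 to 0.975. The remaining array was hCNR1+/+ replicate 3 for *Baz1a*, at -0.12 against 0.30 to 0.35. *Brd9* and *Ep400* were not well above background on hCNR1-/- replicate 4, where the lowest signal well above background was -0.85. These 2 values are therefore not measured levels, and their flags rest on signal at background. The values of the 82 groups share arrays, so they are not independent of each other. The share of all tested genes flagged by this rule was not computed. Replicate 4 was the lowest hCNR1-/- array for 68.4% of the members and for 53.3% of all tested genes. Whether the flags are particular to the members was not tested.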

How the results depend on the processing

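The difference of *Smarca5* was positive under all 20 alternatives tried. It ran from 1.64 with normexp correction, which added a constant to every signal, to 3.02. The adjusted p of *Smarca5* in limma ran from 0.0014 to 0.369. It missed the threshold without scaling (2.22, adjusted p = 0.369), with no filter on dim probes (adjusted p = 0.0644), with the replicate block (adjusted p = 0.0746), without hCNR1+/+ replicate 3 (2.65, adjusted p = 0.0676) and without hCNR1-/- replicate 3 (2.66, adjusted p = 0.0535). The count of members higher at an adjusted p below 0.05, 2 as reported, was 1 with median scaling, the deposited scores or normexp correction, 0 without scaling, without the filter or with the replicate block, and 12 with array weights. Of all tested genes 0.226% were called higher with median scaling, 0.271% with the deposited scores, 0.253% with normexp correction, 0.00903% without scaling, 0.0375% without the filter, 0% with the block and 19.7% with array weights, against 2.94% as reported. The count of members ran from 0 to 6 with 1 array left out. It was 0 without hCNR1+/+ replicate 3 (0.102% of all genes called higher) or hCNR1-/- replicate 3 (0.203%). It was 6 without hCNR1-/- replicate 4 (10%). The count of other subunits higher, 3 as reported, was 0 with median scaling, without scaling, with the deposited scores, with normexp correction, without the filter or with the replicate block, and 17 with array weights, beside the same shares of all genes. The count of other subunits ran from 0 to 8 with 1 array left out. It was 0 without hCNR1+/+ replicate 3, hCNR1-/- replicate 1 (0.316% of all genes called higher) or hCNR1-/- replicate 3. It was 1 without hCNR1+/+ replicate 2 (0.427%) or hCNR1-/- replicate 2 (0.684%), and 8 without hCNR1-/- replicate 4. At an unadjusted p below 0.05 in limma, 10 members and 11 other subunits were higher under the block, 1 and 0 without scaling, and 11 and 11 without the filter, where 13.7%, 0.786% and 6.59% of all genes were higher. With the percentile over probes above background on all arrays, 8 members were higher and 3 lower at an unadjusted p below 0.05. Of all genes 8.47% were higher and 13.2% lower in that setting. No member and no other subunit was lower at the adjusted threshold under any alternative. The share of all genes called lower was itself small, from 0% with the replicate block to 5.83% with array weights. It was 0.461% with the deposited scores and 1.89% with the percentile over probes above background on all arrays. The median difference of the members was -0.40 without scaling and stayed within the spread between arrays (0.28) of 0.15 under the others, from 0.09 to 0.32 with 1 array left out. The deviations of same-numbered arrays from their group means correlated at 0.21, -0.16, -0.05 and 0.02. These values do not settle whether replicate numbers pair the arrays. Replicate 4 had the lowest 75th percentile of intensity in both genotypes, 62.0 in hCNR1+/+ and 29.3 in hCNR1-/- hepatocytes. The cause of the changes between settings was not tested. Depth of signal limits the 11 members that were not tested, whose probes were at background on most arrays.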
